A study of Sus scrofa with 64 samples.

Results

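Tight junctions are the seals between neighbouring cells of the gut lining, and 9 genes for their proteins were followed here in piglet jejunum: CLDN1, CLDN2, CLDN3, CLDN4, CLDN7, CLDN15, OCLN, F11R and TJP1. They were taken by symbol from the 31908 gene IDs counted in each library, with earlier results of these data known. All 9 had an ID, 8 passed the filter on low counts and were among the 14062 genes tested, and CLDN1 did not pass. Claudins are membrane proteins that pair across the gap between cells and set which ions cross it: some form pores, as CLDN2 does for cations and water and CLDN15 for cations, while others, such as CLDN1, CLDN3 and CLDN4, tighten the seal in cultured epithelia. OCLN (occludin) and F11R (junctional adhesion molecule A) are further membrane proteins of the junction. TJP1 (ZO-1) is the scaffold that ties them to the actin belt inside the cell. In the small intestine of mice, CLDN2 and CLDN15 are known for the sodium leak into the lumen that nutrient uptake draws on, and CLDN2 is found mainly in crypt cells.

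RNA was sequenced from mucosa scraped off the mid-jejunum of 64 female TN20 piglets (Large White x Norwegian Landrace), with 16 piglets in each of 4 groups and 1 library per piglet. Fasted 4-week piglets had been reared by the sow without creep feed and were then moved to a separate pen on the farm, with water but no milk or feed for 48 h. Fed 4-week piglets were of the same farm and rearing and stayed with the sow until slaughter. Fasted 6-week piglets had been moved to a research facility at 4 weeks of age, housed in pairs and given a standard weaning diet for 2 weeks before 48 h with water alone. Fed 6-week piglets had the same history and kept their feed. Fasting at 4 weeks therefore came together with removal from the sow, and the change in age came together with weaning, diet and housing, and these cannot be told apart. No litter, pen or day of sampling is given in the sources used here.

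Libraries held 18774144 to 21159989 counts in genes. All 7 paired epithelium markers of 9 listed, among them KRT8, VIL1 and CDX2, passed the filter, and their mean log2 CPM was 7.84 to 8.85 over the 64 piglets. CPM, the usual depth-scaled count, was taken on library sizes adjusted by TMM, the scaling of edgeR. Of 7 skeletal muscle markers listed, 2 passed the filter: CKM had at most 1.93 CPM in any piglet, and TNNC2 had 1.48 to 15.7 CPM. Fasted 4-week piglets 1, 28 and 32 stood apart from the rest, with the lowest sample weights in limma-voom, and they hold several of the extreme values below. Fold changes are log2 differences of 1 edgeR quasi-likelihood fit over all 64 piglets, with standard errors (SE), and adjusted p is the Benjamini-Hochberg value over 14062 genes. A gene is said to have risen or fallen where adjusted p was under 0.05.

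At 4 weeks, 3 of the 8 tested junction genes rose in fasted piglets (CLDN2, CLDN3 and TJP1), where 33.9% of all genes tested rose, and 2 fell (CLDN15 and OCLN), where 29.4% of all genes fell. At 6 weeks CLDN3 alone of the 8 rose, against 22.7% of all genes, and CLDN2 alone fell, against 18.4%. For a set of 8 genes these counts are near the shares of all genes. Their median log2 fold change on fasting was 0.13 at 4 weeks and 0.04 at 6 weeks, beside 0.03 and 0.01 over all genes. The effect of fasting differed between the ages for CLDN2, which had the lower value at 6 weeks as 26.6% of all genes did, and for OCLN, which had the higher value as 27.1% did.

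In fed piglets 5 of 8 were lower at 6 than at 4 weeks (CLDN4, CLDN7, CLDN15, OCLN and F11R), against 32.3% of all genes, and 0 were higher, against 31.9%. The crypt marker level was higher in the same comparison, at 4.41 in fed 6-week and 2.69 in fed 4-week piglets (mean log2 CPM), and with it as a covariate OCLN alone of the 8 was lower and TJP1 alone higher (0.17, adjusted p = 0.044). In fasted piglets 5 of 8 were also lower at 6 weeks (CLDN2, CLDN3, CLDN4, CLDN7 and F11R), against 23.2% of all genes, and 0 were higher, against 19.7%. The median log2 fold change of the 8 was -0.38 in fed and -0.39 in fasted piglets, beside -0.01 over all genes in each. The 2 age comparisons and the 2 fasting comparisons share groups, so their values are given side by side and not as separate evidence. The ranges of the groups overlapped for all 8 genes in these 4 comparisons, while for 1.91% of all genes fasted 4-week piglets lay wholly above fed ones and for 2.73% wholly below. The corresponding shares for fasting at 6 weeks were 0.164% and 0.206%, for age in fed piglets 2.78% and 5.1%, and for age in fasted piglets 0.149% and 0.192%.

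**Figure D1:**
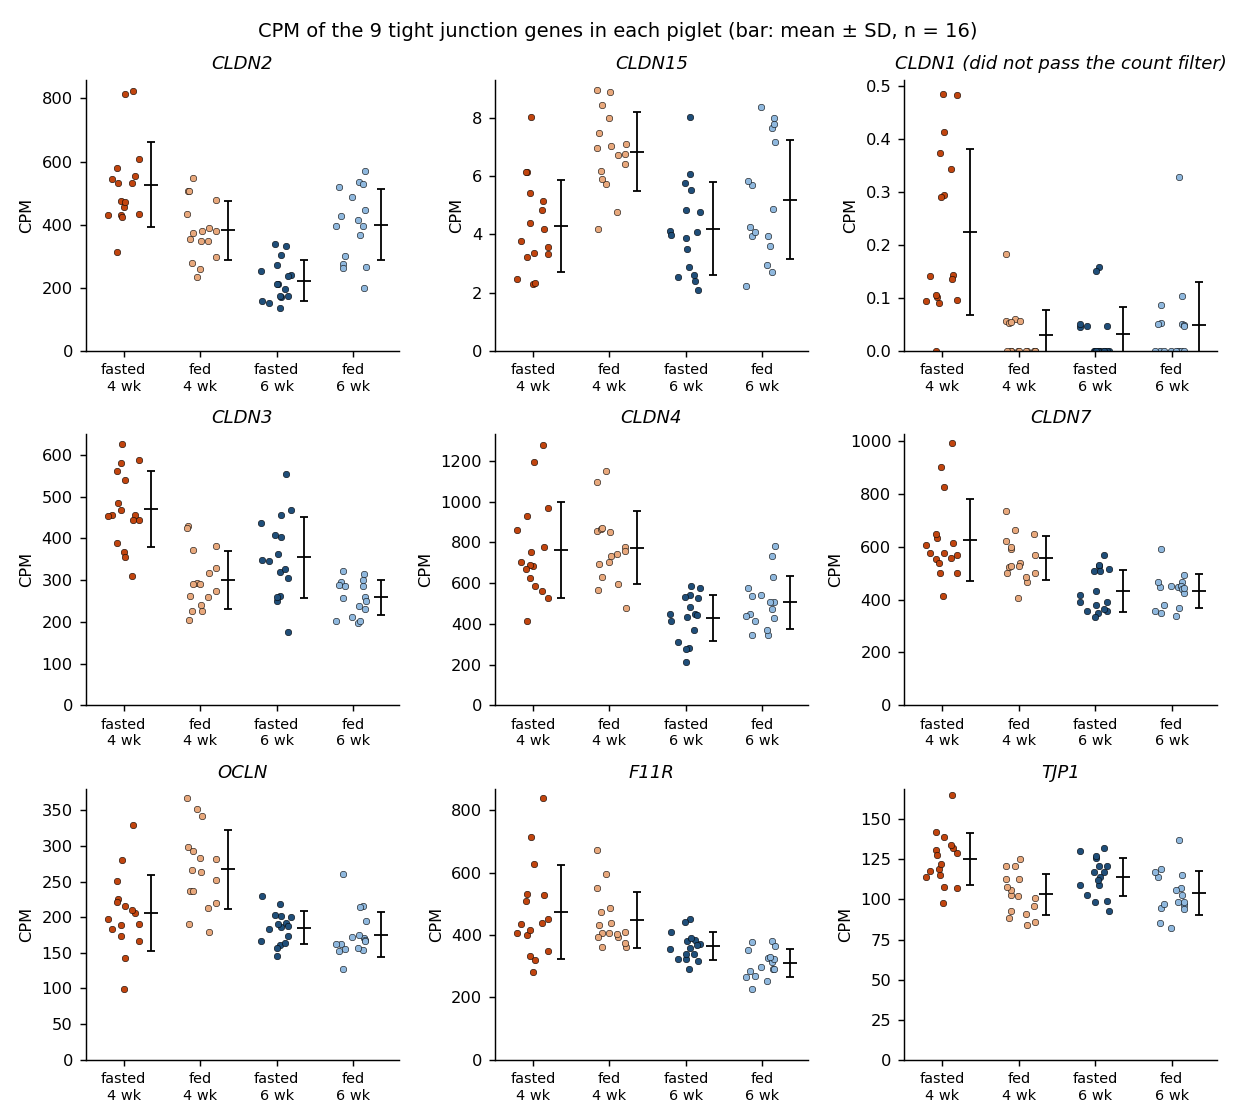
Each panel plots the CPM of 1 gene (y axis, from 0) in each of 64 piglets by group (x axis), with the mean and SD of 16 piglets as a bar beside the points. CLDN2 is lowest in fasted 6-week and highest in fasted 4-week piglets, with means of 223 and 527 CPM, and CLDN4, CLDN7 and F11R sit lower at 6 weeks than at 4 weeks in fasted and in fed piglets.

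CLDN2 (ENSSSCG00000037234, protein-coding, Sscrofa11.1 chrX:87352695-87355724), the pore-forming claudin for cations and water, moved in opposite directions on fasting at the 2 ages. At 4 weeks its lowest, median and highest levels were 313, 503 and 825 CPM in fasted piglets and 234, 376 and 547 CPM in fed piglets. Most fasted piglets were high, 15 of 16 above the fed median, although the ranges overlapped. Fasting gave a log2 fold change of 0.46 (SE 0.14, adjusted p = 0.0025 by edgeR's quasi-likelihood test), a 1.38-fold rise. At 6 weeks the levels were 137, 212 and 338 CPM in fasted piglets and 199, 407 and 570 CPM in fed piglets. Here all 16 fasted piglets were below the fed median, and again the ranges overlapped. This gave a log2 fold change of -0.84 (SE 0.14, adjusted p = 1.4e-06), so fasted 6-week piglets had 0.557 of the fed level.

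The fasting effect on CLDN2 was lower at 6 than at 4 weeks by 1.31 on the log2 scale, coded as a difference of -1.31 (SE 0.19, adjusted p = 6e-08). In fed piglets CLDN2 did not pass the threshold with age (0.06 for 6 against 4 weeks, SE 0.14, adjusted p = 0.69). Among fasted piglets, all 16 at 6 weeks lay below the 4-week median, and the log2 fold change was -1.24 (SE 0.14, adjusted p = 6.3e-11). The rise at 4 weeks came together with a higher level of epithelium markers and lower levels of smooth muscle markers. With the epithelium marker level of each piglet as a covariate it was 0.14 (adjusted p = 0.47), and with that of smooth muscle 0.07 (adjusted p = 0.72). The fall at 6 weeks, the difference between ages and the change with age in fasted piglets passed the threshold in all alternatives run.

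CLDN15 (ENSSSCG00000038901, protein-coding, chr3:8931099-8937189), a pore-forming claudin for cations, was counted thinly, with 43 to 170 reads per piglet, so counting error adds to its spread. At 4 weeks its lowest, median and highest levels were 2.28, 3.98 and 8.03 CPM in fasted piglets and 4.2, 6.86 and 8.97 CPM in fed piglets. Fasted piglets were low, 15 of 16 below the fed median, within overlapping ranges. Fasting gave CLDN15 a log2 fold change of -0.68 (SE 0.17, adjusted p = 0.00063), and with the crypt marker level as a covariate it was -0.23 (adjusted p = 0.34).

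At 6 weeks CLDN15 had 2.1, 4.03 and 8.03 CPM in fasted piglets and 2.21, 4.56 and 8.39 CPM in fed piglets. The groups largely overlapped, and the log2 fold change of -0.31 (SE 0.18) had an adjusted p of 0.15. The fasting effect on CLDN15 did not pass the threshold for a difference between ages (0.36, SE 0.25, adjusted p = 0.21). Among fed piglets it was lower at 6 weeks by the log2 fold change of -0.40 (SE 0.17, adjusted p = 0.041). That call was lost when any 1 of 14 piglets was left out (6, 11, 13, 29, 31, 34, 35, 38, 40, 46, 58, 60, 62 or 64). The weakest of these fits, without pig 60, gave -0.34 (adjusted p = 0.074). The crypt marker covariate turned it to 0.05 (adjusted p = 0.86). In fasted piglets CLDN15 gave -0.03 for 6 against 4 weeks (SE 0.18, adjusted p = 0.89).

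Set against each other within a library, which removes the library scaling, the 2 pore-forming claudins shifted in balance. The ratio draws on the same counts as the tests of each gene and is not separate evidence. It was not run with marker levels as covariates, so the cell types in the scrapings were not taken into account. The log2 ratio of CLDN2 to CLDN15 counts was 6.98 ± 0.65 in fasted and 5.78 ± 0.46 in fed 4-week piglets (mean ± SD, n = 16 each), a difference of 1.20 (adjusted p = 4e-05, 2-sided permutation test over 4 comparisons). Of the fasted 4-week piglets, 14 of 16 lay above the fed median. At 6 weeks the ratio was 5.76 ± 0.64 in fasted and 6.31 ± 0.73 in fed piglets, a difference of -0.55 (adjusted p = 0.033, permutation test), with 13 of 16 fasted piglets below the fed median. In fed piglets the ratio was higher at 6 than at 4 weeks by 0.53 (adjusted p = 0.029, permutation test). In fasted piglets it was lower at 6 weeks by the difference of -1.22, with all 16 below the fasted 4-week median (adjusted p = 4e-05, permutation test). Across the 16 piglets of a group no relation of CLDN2 and CLDN15 levels was detected. Pearson's r was -0.06 in fasted and 0.03 in fed 4-week piglets and 0.10 in fasted and 0.04 in fed 6-week piglets. All 4 adjusted permutation p values were 0.91. Spearman's rho was 0.01, 0.14, 0.19 and 0.11 in the same order, and r without the 2 piglets farthest from the CLDN2 median was -0.14, -0.24, 0.19 and -0.00.

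**Figure D2:**
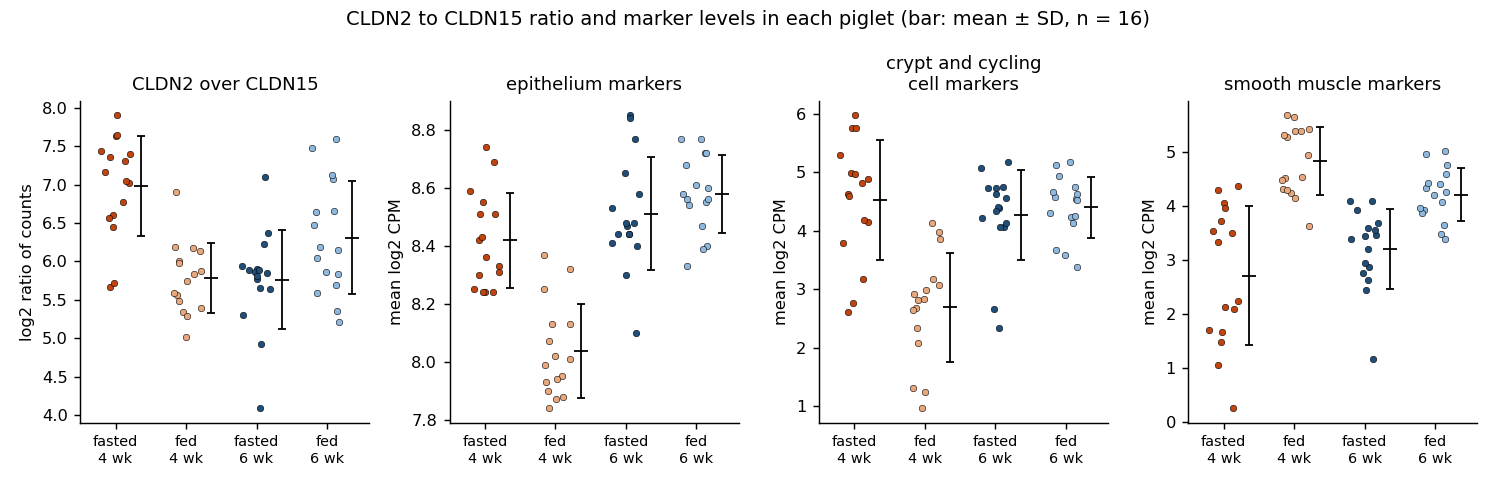
The first panel plots the log2 ratio of CLDN2 to CLDN15 counts (y axis) in each piglet by group (x axis), and the others plot the mean log2 CPM of the epithelium, crypt and smooth muscle markers, with the mean and SD of 16 piglets as a bar. The ratio is highest in fasted 4-week piglets (mean 6.98), the epithelium and crypt markers are lowest in fed 4-week piglets, and the smooth muscle markers are lower in fasted than in fed piglets at each age.

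CLDN3 (ENSSSCG00000035928, protein-coding, chr3:11019073-11020102), a sealing claudin, was the only gene of the 8 that rose on fasting at both ages. At 4 weeks its lowest, median and highest levels were 310, 457 and 627 CPM in fasted piglets and 205, 291 and 429 CPM in fed piglets. All 16 fasted piglets were above the fed median, though the ranges overlapped. The log2 fold change was 0.64 (SE 0.11, adjusted p = 1.3e-06), and 0.23 (adjusted p = 0.11) with the epithelium marker level as a covariate. At 6 weeks its levels were 176, 346 and 554 CPM in fasted piglets and 198, 258 and 321 CPM in fed piglets. The fasted group spread wider on both sides, and 14 of 16 fasted piglets were above the fed median. The log2 fold change was 0.46 (SE 0.11, adjusted p = 0.00085). The difference between ages was -0.19 (SE 0.16, adjusted p = 0.32).

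With age CLDN3 fell in fasted piglets, with a log2 fold change of -0.41 for 6 against 4 weeks (SE 0.11, adjusted p = 0.0024). In fed piglets the value was -0.22 (SE 0.11, adjusted p = 0.08), and it passed the threshold without fed 4-week pig 25 (-0.25, adjusted p = 0.046).

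CLDN4 (ENSSSCG00000007718, protein-coding, chr3:11039711-11053930) lies 19608 bases beyond CLDN3 on the same chromosome and is likewise a sealing claudin. It passed the threshold on fasting at neither age. At 4 weeks the lowest, median and highest levels were 414, 697 and 1278 CPM in fasted piglets and 479, 751 and 1152 CPM in fed piglets, and the log2 fold change was -0.02 (SE 0.13, adjusted p = 0.9). At 6 weeks the levels were 211, 446 and 585 CPM in fasted piglets and 344, 491 and 781 CPM in fed piglets, with -0.23 (SE 0.13, adjusted p = 0.16). The groups overlapped throughout at each age. CLDN4 was lower at 6 weeks with a log2 fold change of -0.62 in fed piglets (SE 0.13, adjusted p = 6.4e-05, 15 of 16 below the 4-week median), a call lost with the crypt covariate (-0.34, adjusted p = 0.068). In fasted piglets the log2 fold change was -0.83 (SE 0.13, adjusted p = 1e-06, 16 of 16 below).

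CLDN7 (ENSSSCG00000017934, protein-coding, chr12:52612517-52628376), which in mice also binds integrins and EPCAM along the side of the cell, passed the threshold in the same 2 of 5 comparisons as CLDN4. At 4 weeks it had a lowest, median and highest level of 415, 577 and 993 CPM in fasted piglets and 405, 533 and 734 CPM in fed piglets, with a log2 fold change of 0.17 (SE 0.09, adjusted p = 0.11). At 6 weeks it had 335, 404 and 567 CPM in fasted piglets and 337, 445 and 590 CPM in fed piglets, with 0.00 (SE 0.09, adjusted p = 0.99). Fasted and fed piglets overlapped almost fully at 6 weeks. It was lower at 6 weeks by the log2 fold change of -0.37 in fed piglets (SE 0.09, adjusted p = 0.0005), a call lost with the crypt covariate (-0.09, adjusted p = 0.46). In fasted piglets the log2 fold change was -0.53 (SE 0.09, adjusted p = 4e-06), with all 16 below the 4-week median.

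CLDN1 (ENSSSCG00000040904, protein-coding, chr13:127714857-127730628), a sealing claudin best known from skin, was close to the limit of detection. Reads were counted in 15 of 16 fasted and 6 of 16 fed piglets at 4 weeks, and in 6 of 16 fasted and 8 of 16 fed piglets at 6 weeks. The totals over 16 libraries were 76 reads in fasted and 8 in fed 4-week piglets, and 10 reads in fasted and 15 in fed 6-week piglets. No piglet had more than 13 reads, or 0.486 CPM, and the highest values were in the fasted 4-week group. CLDN1 did not pass the filter and has no place in the counts of called genes. In a fit without that filter its log2 fold change for fasting at 4 weeks was 2.76 (SE 0.53, adjusted p = 1.3e-05), and at 6 weeks -0.51 (SE 0.62, adjusted p = 0.61). In the same fit the difference between ages was -3.27 (SE 0.86, adjusted p = 0.0017) and the change for 6 against 4 weeks in fasted piglets was -2.62 (SE 0.51, adjusted p = 4.1e-05). At such counts a fitted fold change depends on the prior count.

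OCLN (ENSSSCG00000021514, protein-coding, chr16:47600175-47652435), a membrane protein of the junction strands, fell on fasting at 4 weeks. Its lowest, median and highest levels were 99.4, 202 and 330 CPM in fasted piglets and 179, 265 and 367 CPM in fed piglets. Fasted piglets were low, 14 of 16 below the fed median, and the ranges overlapped. The log2 fold change was -0.38 (SE 0.10, adjusted p = 0.00091), and -0.03 (adjusted p = 0.86) with the crypt marker level as a covariate. At 6 weeks the levels were 146, 187 and 230 CPM in fasted piglets and 128, 168 and 261 CPM in fed piglets, fasted piglets lying inside the fed range. The log2 fold change there was 0.08 (SE 0.10, adjusted p = 0.57). The fasting effect on OCLN was higher at 6 than at 4 weeks by 0.46 (SE 0.14, adjusted p = 0.0057), a difference that was 0.08 (adjusted p = 0.67) with the crypt covariate.

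In fed piglets OCLN was lower at 6 weeks by the log2 fold change of -0.61 (SE 0.10, adjusted p = 5.5e-07), with all 16 below the 4-week median, and by that of -0.26 (adjusted p = 0.032) with the crypt covariate. In fasted piglets the value was -0.15 (SE 0.10, adjusted p = 0.24). Mean OCLN CPM was highest in fed 4-week piglets.

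F11R (ENSSSCG00000006369, protein-coding, chr4:89425101-89447889), an immunoglobulin-type adhesion molecule of the junction, passed the threshold for age and not for fasting. At 4 weeks its lowest, median and highest levels were 282, 438 and 839 CPM in fasted piglets and 361, 409 and 674 CPM in fed piglets, with the fasted range enclosing the fed one and a log2 fold change of 0.08 (SE 0.10, adjusted p = 0.49). With smooth muscle markers as a covariate that value was -0.33 (adjusted p = 0.015). At 6 weeks the levels were 291, 364 and 453 CPM in fasted piglets and 227, 306 and 382 CPM in fed piglets. Although 15 of 16 fasted piglets were above the fed median, the log2 fold change of 0.24 (SE 0.10) had an adjusted p of 0.053. It passed the threshold in 6 alternatives, with values of 0.21 to 0.29. F11R was lower at 6 weeks with a log2 fold change of -0.53 in fed piglets (SE 0.10, adjusted p = 8.3e-06, 16 of 16 below the 4-week median) and of -0.38 in fasted piglets (SE 0.10, adjusted p = 0.0022, 14 of 16 below). With the crypt covariate the value in fed piglets was -0.13 (adjusted p = 0.27).

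TJP1 (ENSSSCG00000004854, protein-coding, chr1:144930387-145195857), the scaffold, had the smallest spread of the 8. Its RefSeq span overlaps SEH1L, and reads of the overlap are uncertain because the strand setting of the counting is unknown here. At 4 weeks the lowest, median and highest levels were 97.6, 125 and 165 CPM in fasted piglets and 84, 102 and 125 CPM in fed piglets. Of the fasted piglets, 15 of 16 were above the fed median, in overlapping ranges. The log2 fold change was 0.28 (SE 0.06, adjusted p = 0.00017), and 0.15 (adjusted p = 0.12) with smooth muscle markers as a covariate. At 6 weeks the levels were 92.9, 115 and 132 CPM in fasted piglets and 82.4, 101 and 137 CPM in fed piglets, with a log2 fold change of 0.13 (SE 0.06, adjusted p = 0.086). Without fed 6-week pig 64, which had the highest value, it was 0.17 (adjusted p = 0.029). For 6 against 4 weeks the log2 fold change of TJP1 was 0.01 in fed piglets (SE 0.06, adjusted p = 0.87) and -0.13 in fasted piglets (SE 0.06, adjusted p = 0.099).

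**Figure D3:**
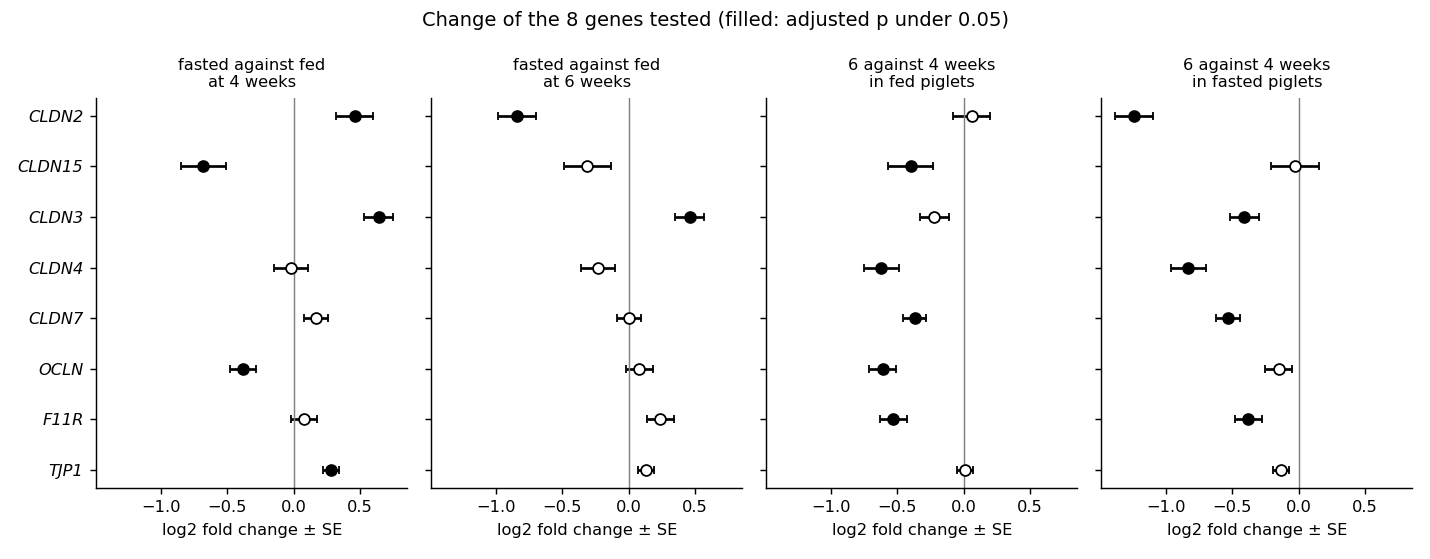
The 4 panels plot the log2 fold change (x axis) of each of the 8 tested genes (y axis) with its SE as a bar, for fasting at 4 weeks, fasting at 6 weeks, age in fed piglets and age in fasted piglets, filled where adjusted p was under 0.05. CLDN2 lies right of 0 for fasting at 4 weeks (0.46) and left of it at 6 weeks (-0.84), CLDN3 lies right of 0 for fasting at both ages, and no filled point lies right of 0 for age.

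The order of the 4 groups differed from gene to gene. Mean CPM of CLDN2 was 527 in fasted and 382 in fed 4-week piglets and 223 in fasted and 400 in fed 6-week piglets. Fasted 4-week piglets were thus highest and fasted 6-week piglets lowest, and only the 2 fed groups, next to each other in the middle, did not pass the threshold against each other. CLDN3 averaged 470 CPM in fasted and 301 in fed 4-week piglets and 355 in fasted and 259 in fed 6-week piglets. Its order ran fasted 4-week, fasted 6-week, fed 4-week, fed 6-week, and the 2 middle groups (0.24 for fasted 6-week against fed 4-week piglets, adjusted p = 0.059) and the 2 fed groups did not pass. CLDN4 (763 CPM in fasted and 774 in fed 4-week piglets, 430 in fasted and 505 in fed 6-week piglets) fell into an upper pair at 4 weeks and a lower pair at 6 weeks. CLDN7 (625 CPM in fasted and 556 in fed 4-week piglets, 433 in fasted and 432 in fed 6-week piglets) and F11R (474 in fasted and 448 in fed 4-week piglets, 365 in fasted and 309 in fed 6-week piglets) did the same. Within none of these pairs did the groups pass the threshold.

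CLDN15 averaged 4.29 CPM in fasted and 6.85 in fed 4-week piglets and 4.19 in fasted and 5.2 in fed 6-week piglets. Its order ran fed 4-week, fed 6-week, fasted 4-week, fasted 6-week, and of neighbours only the 2 fed groups passed. OCLN averaged 205 CPM in fasted and 267 in fed 4-week piglets and 185 in fasted and 176 in fed 6-week piglets, and of neighbours in its order only the 2 groups at 4 weeks passed. TJP1 averaged 125 CPM in fasted and 103 in fed 4-week piglets and 114 in fasted and 104 in fed 6-week piglets, and no neighbours in its order passed. Of the 2 diagonal comparisons used for these orders, fed 6-week against fasted 4-week piglets called 6 of the 8 genes, all lower, where 48.8% of all genes were called in either direction. Fasted 6-week against fed 4-week piglets called 7 of the 8 (6 lower, with TJP1 higher by 0.15), where 65.2% of all genes were called.

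Markers of the cell types in the scrapings moved with the same groups. In scrapings, fewer cells of a type and less RNA per cell cannot be told apart. The mean log2 CPM of the 7 epithelium markers was 8.42 in fasted and 8.04 in fed 4-week piglets, a difference of 0.38 seen in 16 of 16 (adjusted p = 4.4e-05, permutation test over 44 comparisons). By the median over markers it was 0.29 (adjusted p = 0.024). The markers were not alike: mean CPM in fasted and fed 4-week piglets was 2547 and 1431 for KRT8, and 585 and 648 for HNF4A. Absorptive enterocyte markers differed at 4 weeks by -0.46 by the mean (adjusted p = 0.007) and by -0.19 by the median over markers (adjusted p = 0.4, permutation tests). At 6 weeks the epithelium mean was 8.51 in fasted and 8.58 in fed piglets (-0.07, adjusted p = 0.34, permutation test). Of the crypt and cycling cell markers, 7 of 10 listed were tested, LGR5 and OLFM4 among them. Their level ranged over 2.62 to 5.97 in fasted and 0.97 to 4.14 in fed 4-week piglets, a difference in means of 1.83. In 6-week piglets it ranged over 2.33 to 5.18 in fasted and 3.38 to 5.17 in fed ones, a difference of -0.14 (adjusted p = 0.6, permutation test). By the median over markers that 6-week difference was -0.63, with 14 of 16 fasted piglets below the fed median (adjusted p = 0.0019, permutation test). All 8 smooth muscle markers were tested, and their level was lower in fasted piglets at each age, with means of 2.71 in fasted and 4.82 in fed 4-week piglets and of 3.20 in fasted and 4.20 in fed 6-week piglets. At each age 16 of 16 fasted piglets were below the fed median (adjusted p = 4.4e-05 at each, permutation test).

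Macrophage markers (6 of 6 tested) differed between fasted and fed piglets by 1.33 at 4 weeks (adjusted p = 4.4e-05) and by -0.37 at 6 weeks (adjusted p = 0.027, permutation tests). These are the directions of CLDN2, by the mean over markers. By the median the values were 0.50 (adjusted p = 0.018) and -0.07 (adjusted p = 0.62, permutation tests), with 9 of 16 fasted 6-week piglets above the fed median. Beyond the 3 covariates given, the part of these cell types in the results was not tested. Relative to the epithelium markers of its own library, CLDN2 was at 0.58 ± 0.32 in fasted and 0.50 ± 0.34 in fed 4-week piglets, on the log2 scale (mean ± SD, n = 16 each), with 8 of 16 fasted piglets above the fed median. At 6 weeks it was at -0.77 ± 0.38 in fasted and 0.00 ± 0.44 in fed piglets, all 16 fasted piglets below the fed median. OCLN on this scale was at -0.78 ± 0.32 in fasted and -0.01 ± 0.25 in fed 4-week piglets, 16 of 16 fasted piglets below. CLDN3 was at 0.43 ± 0.26 in fasted and 0.16 ± 0.25 in fed 4-week piglets, with 15 of 16 fasted piglets above, and at -0.09 ± 0.27 in fasted and -0.58 ± 0.28 in fed 6-week piglets, again with 15 of 16 above. CLDN15 was at -6.37 ± 0.53 in fasted and -5.27 ± 0.30 in fed 4-week piglets, with 16 of 16 fasted piglets below. Against the median of the epithelium markers in place of their mean, CLDN2 at 4 weeks differed by 0.17 with 12 of 16 fasted piglets above the fed median, against 0.08 by the mean. CLDN3 at 6 weeks differed by 0.31 by the median and by 0.49 by the mean, with 15 of 16 above in both.

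Within a group, some junction genes varied together from piglet to piglet and others did not. CLDN4 and CLDN7 were related in all 4 groups, with Pearson's r of 0.64 in fasted and 0.65 in fed 4-week piglets (n = 16 each, adjusted p = 0.024 for both by permutation test over 16 correlations). In 6-week piglets r was 0.72 in fasted (adjusted p = 0.0094) and 0.56 in fed piglets (adjusted p = 0.064, permutation tests), and Spearman's rho was 0.64 to 0.71 over the 4 groups (adjusted p = 0.019 each, permutation test). Without the 2 piglets farthest from the CLDN4 median r was 0.31 in fasted 4-week piglets and 0.57 to 0.68 in the other groups. In fasted 4-week piglets the size of r thus depended on those 2, while rho over all 16 was 0.65. OCLN and TJP1 were related in 4-week piglets, with r of 0.84 in fasted (adjusted p = 0.0018) and 0.72 in fed piglets (adjusted p = 0.0094, permutation tests). Their rho was 0.79 and 0.68 there, and r without the 2 farthest piglets 0.65 and 0.80. In 6-week piglets r of OCLN and TJP1 was 0.13 in fasted (adjusted p = 0.91) and 0.46 in fed piglets (adjusted p = 0.15, permutation tests), with rho of 0.18 and 0.20. Whether the relation differed between the ages was not tested. In every within-group correlation both genes share the scaling of their library, which the permutation test does not take into account. In fasted 4-week piglets pig 28 was highest and pig 1 lowest in both OCLN and TJP1, with TMM factors of 0.758 and 1.383. Correlations without that scaling were not run.

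CLDN3 and CLDN4, neighbours on the chromosome, gave r of 0.06 in fasted and 0.09 in fed 4-week piglets and 0.34 in fed 6-week piglets. In fasted 6-week piglets r was 0.55 (adjusted p = 0.065), rho 0.65 (adjusted p = 0.019, permutation tests) and r without the 2 farthest piglets 0.82. Over all 64 piglets, with group means removed, the pairs most alike were CLDN7 with F11R and OCLN with F11R (r = 0.79 each), and CLDN3 with TJP1 the least (r = -0.09). These values share libraries, scaling and depth and are a description. CLDN2 gave r between -0.02 and 0.30 to the other 7 genes.

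**Figure D4:**
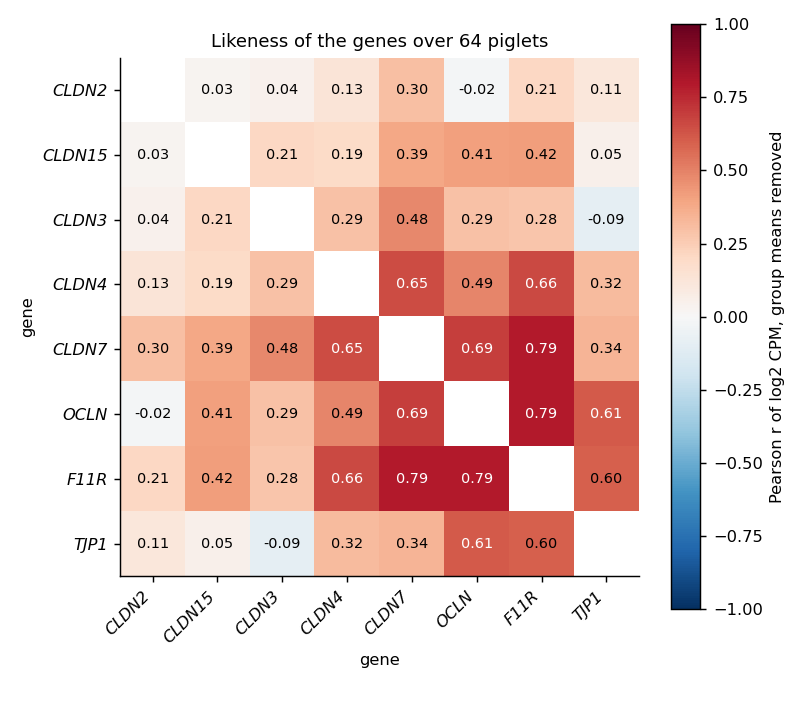
The grid plots Pearson's r of log2 CPM between each pair of the 8 tested genes (x and y axes) over 64 piglets after removing group means, with the value in each cell and the colour running from -1 to 1. CLDN4, CLDN7, OCLN and F11R have values of 0.49 to 0.79 with each other. TJP1 has 0.61 with OCLN and 0.60 with F11R, but 0.32 with CLDN4 and 0.34 with CLDN7. CLDN2 has values between -0.02 and 0.30.

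The spread between piglets of a group, as the biological coefficient of variation of edgeR, was highest for CLDN15 (0.329) and lowest for TJP1 (0.131), below which lay 12.1% of all genes. Pig 28 of the fasted 4-week group had the highest value of that group in CLDN2, CLDN4, CLDN7, OCLN, F11R and TJP1. Pig 1 had the lowest value of that group in CLDN7, CLDN15, OCLN, F11R and TJP1. Of all libraries, that of pig 28 had the lowest TMM factor (0.758) and that of pig 1 the highest (1.383). Their counts in genes were 19424654 and 19380420. A low factor raises every CPM value of a library and a high one lowers it. The part of this scaling in the extreme values was not tested. Without pigs 1, 28 and 32, 39 of the 40 values of the 8 genes over 5 comparisons kept their side of the threshold. The exception was F11R on fasting at 6 weeks, which passed it.

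The genes most like CLDN2 over 64 piglets, with group means removed, were LGALS3BP (r = 0.62), ISG12(A) and MFSD12 (r = 0.59 each). For CLDN15 they were GUSB (r = 0.70), KIAA1191 and TMEM120B (r = 0.69 each). CLDN4 was most like TNFRSF1A (r = 0.82), RELA (r = 0.81) and SEMA4B (r = 0.79). TNFRSF1A is a receptor for tumour necrosis factor and RELA a subunit of NF-kappa-B.

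The other proteins of the junction were followed through lists, whose counts stand beside 33.9% of all genes rising and 29.4% falling on fasting at 4 weeks, and 22.7% and 18.4% at 6 weeks. Of 16 other claudins listed, 4 passed the filter, of which 1 rose and 2 fell on fasting at 4 weeks, and 0 rose and 1 fell at 6 weeks. CLDN23, a little-studied claudin of gut epithelium, had a lowest, median and highest level of 15, 35.3 and 82.4 CPM in fasted and 10.1, 17.3 and 29.1 CPM in fed 4-week piglets (log2 fold change 1.00, SE 0.17, adjusted p = 6.4e-07). In 6-week piglets CLDN23 was at 8.32, 18.2 and 33.4 CPM in fasted and 16.9, 22.7 and 39.3 CPM in fed piglets (-0.31, SE 0.17, adjusted p = 0.13), and the value was -0.40 (adjusted p = 0.049) without pig 35. The signs are those of CLDN2, although CLDN23 was not called on fasting at 6 weeks in the main fit. The difference between ages for CLDN23 was -1.32 (SE 0.24, adjusted p = 4.4e-06). CLDN10, an ion-selective claudin known from kidney and glands, was at 0.672, 1.82 and 4.07 CPM in fasted and 2.98, 16.6 and 30.4 CPM in fed 4-week piglets (-2.96, SE 0.31, adjusted p = 1.1e-12). Fed 4-week piglets stood out, since fed 6-week piglets had 0.548, 2.14 and 6.31 CPM (-2.69 against fed 4-week piglets, SE 0.30, adjusted p = 1.5e-11). CLDN11, known from myelin and testis, fell on fasting at 4 weeks (-1.53, SE 0.23, adjusted p = 3.5e-08) and at 6 weeks (-0.72, SE 0.24, adjusted p = 0.014). Counts of CLDN11 were low, with 4 to 30 reads per piglet in fasted and 15 to 72 in fed 4-week piglets. At 6 weeks CLDN11 had 3 to 17 reads in fasted and 3 to 39 in fed piglets. With smooth muscle markers as a covariate its value at 6 weeks was -0.24 (adjusted p = 0.39). CLDN5, the claudin of blood vessels, was not called on fasting (0.13 and 0.08, adjusted p = 0.69 and 0.83). Blood endothelium markers went otherwise: of 8 tested, 0 rose and 6 fell at 4 weeks, and 0 rose and 1 fell at 6 weeks. Their mean level differed by -0.99 at 4 weeks (adjusted p = 0.00083) and by -0.29 at 6 weeks (adjusted p = 0.092, permutation tests).

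Of 9 tested membrane proteins of the junction beyond the claudins, 3 rose and 4 fell at 4 weeks, and 2 rose and 3 fell at 6 weeks. ILDR1, an angulin of the sites where 3 cells meet, rose to 4.63, 7.55 and 11.1 CPM (lowest, median and highest) in fasted 4-week piglets, against 2.04, 2.64 and 4.15 CPM in fed ones, with the groups wholly apart. Its log2 fold change was 1.41 (SE 0.13, adjusted p = 3e-14), and 0.40 at 6 weeks (SE 0.13, adjusted p = 0.012). MARVELD2 (tricellulin), the partner of the angulins at those sites and a relative of OCLN, fell at 4 weeks (-0.35, SE 0.08, adjusted p = 0.00011) and gave 0.00 at 6 weeks (SE 0.08, adjusted p = 0.99), the same calls as OCLN. MARVELD3, the remaining relative of OCLN, rose on fasting at 4 weeks (0.28, SE 0.10, adjusted p = 0.01) and 6 weeks (0.43, SE 0.10, adjusted p = 0.00034). BVES fell by 1.25 at 4 weeks (adjusted p = 1.1e-05) and by 1.21 at 6 weeks (adjusted p = 0.00011), and at 4 weeks its value was -0.14 (adjusted p = 0.71) with smooth muscle markers as a covariate. Counts of BVES were low, with 1 to 34 reads per piglet in fasted and 11 to 42 in fed 4-week piglets. At 6 weeks BVES had 1 to 17 reads in fasted and 6 to 35 in fed piglets.

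Of 18 tested scaffold and polarity proteins, 6 rose and 7 fell at 4 weeks, and 4 rose and 3 fell at 6 weeks. TJP3 (ZO-3), a relative of TJP1, rose by 0.81 at 4 weeks (SE 0.08, adjusted p = 2.6e-14), beside 0.28 for TJP1, and by 0.20 at 6 weeks (SE 0.08, adjusted p = 0.03). The 6-week call was lost without pig 1, 35 or 42, with values down to 0.16 and an adjusted p up to 0.11. YBX3 (ZONAB), a Y-box factor that binds TJP1, rose at 4 weeks (0.88, SE 0.14, adjusted p = 2.6e-07) and gave 0.11 (adjusted p = 0.5) there with the crypt covariate. At 6 weeks PARD6B fell (-0.72, SE 0.12, adjusted p = 2.8e-06) and PRKCZ, the atypical protein kinase C of the same complex, rose (0.43, SE 0.09, adjusted p = 0.00018).

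Among the neighbouring junction types, 6 of 8 desmosome genes rose and 0 fell on fasting at 4 weeks, and 2 rose and 0 fell at 6 weeks. In fed piglets all 8 were higher at 6 than at 4 weeks, where 31.9% of all genes were. The epithelium marker level was 8.58 in fed 6-week and 8.04 in fed 4-week piglets by the mean over markers, and with it as a covariate the calls of DSC2 (0.07, adjusted p = 0.77), DSP (0.06, adjusted p = 0.74), PKP3 (0.08, adjusted p = 0.43), PPL (0.42, adjusted p = 0.12) and EVPL (0.40, adjusted p = 0.23) were lost. By the median over markers that level was 8.47 in fed 6-week and 8.45 in fed 4-week piglets. PKP2, a plakophilin, was at 69.5, 86 and 121 CPM in fasted and 36.9, 50.4 and 69.5 CPM in fed 4-week piglets (0.82, SE 0.08, adjusted p = 3.6e-13). PPL (periplakin) rose at 4 weeks (1.29, SE 0.16, adjusted p = 1.3e-10) and gave 0.04 at 6 weeks (SE 0.15, adjusted p = 0.86). The 4-week rise of EVPL (envoplakin) by 0.42 was lost in 16 of 64 fits that left out 1 piglet (adjusted p up to 0.091), and it rose at 6 weeks (0.72, SE 0.18, adjusted p = 0.00086). PKP1 had under 11 CPM in every piglet, and its call at 4 weeks (1.36, SE 0.61, adjusted p = 0.048) was lost with limma-voom (1.45, adjusted p = 0.2), with DESeq2 size factors (1.35, adjusted p = 0.05) and in 20 of 64 fits that left out 1 piglet. Of 9 adherens junction genes, 2 rose and 3 fell at 4 weeks, and 1 rose and 5 fell at 6 weeks. CDH1 (E-cadherin) fell on fasting at 4 weeks (-0.67, SE 0.12, adjusted p = 1.2e-06) and 6 weeks (-0.64, SE 0.12, adjusted p = 1.1e-05). It was also lower at 6 than at 4 weeks in fed (-0.66, adjusted p = 1.3e-06) and in fasted piglets (-0.63, adjusted p = 8.9e-06).

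**Figure D5:**
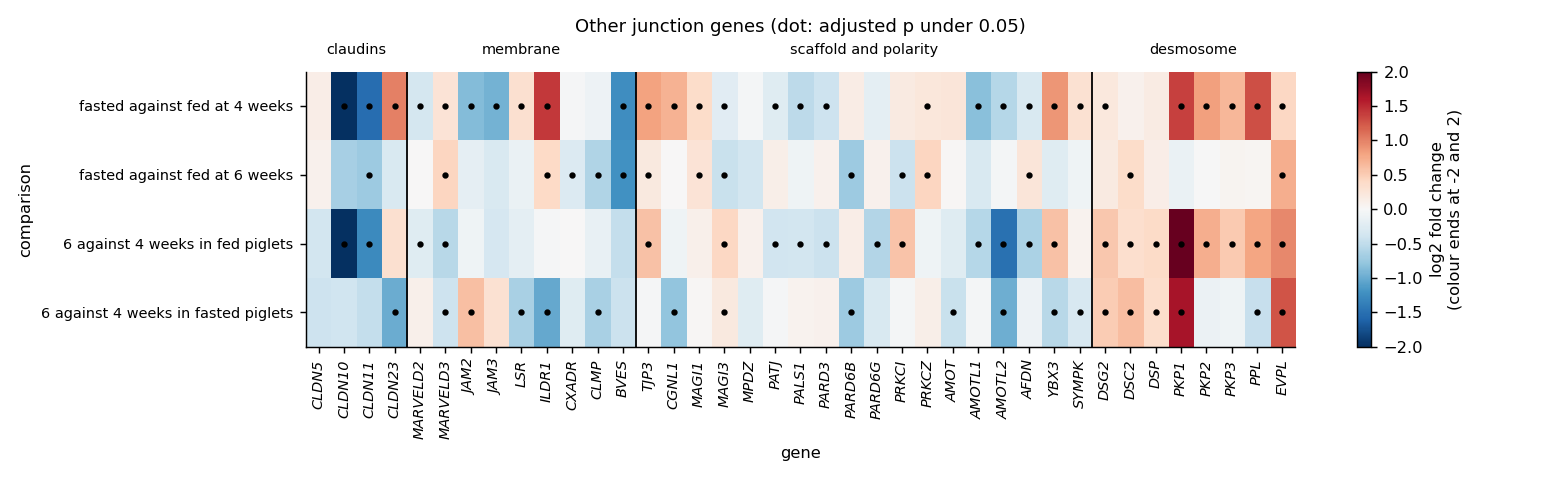
The grid plots the log2 fold change (colour, ending at -2 and 2) of the other claudins, junction membrane proteins, scaffold and polarity proteins and desmosome proteins tested (x axis) in 4 comparisons (y axis), with a dot where adjusted p was under 0.05. CLDN10 is at the blue end for fasting at 4 weeks (-2.96) and for age in fed piglets (-2.69), and all 8 desmosome genes carry a dot and a red colour for age in fed piglets.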

How the data were processed

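Each library came from 1 piglet (16 per group). Per the labels, sequencing used a BGISEQ-500, and the extraction protocol speaks of muscle tissue while the source is jejunum scraping. The authors deposited unnormalized counts of reads in each gene, and the submitters' processing notes name STAR, HTSeq and the build Sscrofa11.1. Versions, annotation release and strand setting are not given in the sources used here. The 5 HTSeq summary classes were left out of totals and tests (4.84 to 8.89% of reads outside genes, 5.5 to 7.64% ambiguous, 2.73 to 4.07% not uniquely aligned). Claudins are a gene family, and reads that align to several places are in the last class.

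Symbols were paired with 15029 of 31908 IDs, and locations were matched by symbol to RefSeq genes on Sscrofa11.1. Genes were kept by filterByExpr (14062 of 25772 with a count), scaled by TMM (factors 0.758 to 1.383) and fitted with edgeR 4.0.16 in R 4.3.3, with robust quasi-likelihood F tests and a mean per group. SE is the absolute log2 fold change over the square root of F. Per-piglet log2 CPM used a prior count of 2 and the CLDN2 to CLDN15 ratio a prior count of 0.5. Marker levels and the ratio were tested by 2-sided permutation with 100000 resamples (smallest p 1e-05), adjusted over 44 and 4 tests. Alternatives used DESeq2 1.42.0, limma 3.58.1, other scaling, no filter, fits of 2 groups and 3 marker levels as covariates. No litter, pen or batch was modelled, and p-values treat piglets as unmatched. Identical pairs of libraries within a group numbered 0.

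The 9 genes and all lists were chosen with earlier results of these data known. Named from the 8 other junction lists were, per comparison, the called genes that rose and fell most, and 3 genes most like CLDN2, CLDN15 and CLDN4. That rule could not be applied to CLDN1, which did not pass the filter. CLDN5, MARVELD2, PKP2, EPCAM and ST14, and the 4-week values of TJP3, were chosen after their values were seen. Sequences were not used here. Of the lists, 2 genes are not reported here and were left out of the list counts. Of the listed symbols, 22 had no paired ID.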

Additional observations from a re-analysis of the deposited data

Results flagged for a closer look

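The effect of fasting differed between 6 and 4 weeks, by the edgeR quasi-likelihood test of the difference itself (Benjamini-Hochberg over 14062 genes, 16 piglets per group), for 2 of the 8 tested junction genes. For CLDN2 the difference was -1.31 (SE 0.19, adjusted p = 6e-08), with 16 of 16 fasted piglets below the fed median at 6 weeks and 15 of 16 above it at 4 weeks. For OCLN it was 0.46 (SE 0.14, adjusted p = 0.0057), with 11 of 16 fasted piglets above the fed median at 6 weeks and 14 of 16 below it at 4 weeks. The difference for OCLN did not pass the threshold with crypt markers as a covariate (0.08, adjusted p = 0.67). That of CLDN2 passed under all alternatives run.

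Of all genes tested, 27.1% had a higher and 26.6% a lower value of this difference at adjusted p under 0.05. Other junction genes had such a difference too. They were named for their changes in comparisons of the same groups, so their number says nothing particular about junction genes. Among claudins and junction membrane proteins the difference was -1.32 for CLDN23 (adjusted p = 4.4e-06), 2.29 for CLDN10 (adjusted p = 7.3e-06), 0.81 for CLDN11 (adjusted p = 0.034) and -1.01 for ILDR1 (adjusted p = 6.3e-06). Among scaffold and polarity proteins it was -1.13 for YBX3, -0.87 for PARD6B, -0.62 for TJP3 and 0.52 for AMOTL2 (adjusted p = 2.6e-06, 1.6e-05, 2.1e-06 and 0.019). Among adherens junction and desmosome proteins it was -0.73 for JUP, 0.44 for NECTIN1 and -1.25 for PPL (adjusted p = 1.9e-05, 0.016 and 1.9e-06). Among actomyosin regulators it was -1.57 for TIAM1, 0.32 for ARHGEF18, 0.26 for ROCK1 and -0.32 for RAC1 (adjusted p = 8.1e-07, 0.024, 0.034 and 0.011). In the matriptase and EPCAM list it was -0.63 for EPCAM, -0.70 for ST14 and -0.32 for PRSS8 (adjusted p = 5.5e-06, 3.9e-05 and 0.026). Among cytokines and receptors it was -2.29 for IFNG, -0.68 for IFNGR1 and -0.74 for TGFB1 (adjusted p = 0.00036, 0.00024 and 0.0017). With the epithelium covariate the difference of ST14 was -0.30 (adjusted p = 0.1). The calls of CLDN11, ROCK1 and PRSS8 were lost in 6, 3 and 1 of the 64 fits that left out 1 piglet, with an adjusted p of up to 0.063, 0.066 and 0.05.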

How the results depend on the processing

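The 8 tested junction genes had 392 values under the alternatives tried, of which 350 kept their side of the threshold. A further 27 passed it newly, 13 no longer passed and 2 reversed. Reversal was counted only where the main or the alternative value passed the threshold, and changes of sign among uncalled values were not counted. The reversals were F11R on fasting at 4 weeks with smooth muscle markers as a covariate (-0.33) and CLDN15 with age in fed piglets with crypt markers as a covariate (0.05). The level of absorptive enterocyte markers with age in fed piglets also reversed, to 0.11 by the median over markers. The cause was not tested.

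Counts of the junction genes called moved as follows. On fasting at 4 weeks 5 rose with library size alone, 1 with the epithelium covariate, 5 with the crypt covariate and 1 with the smooth muscle covariate, and 0 fell with the crypt covariate. At 6 weeks 2 rose with library size alone, limma-voom, a fit of the groups compared only, the epithelium or crypt covariate or without pigs 1, 28 and 32, and 2 fell with the smooth muscle covariate. The difference between ages was higher for 2 with the epithelium or smooth muscle covariate and for 0 with the crypt covariate, and lower for 5 with library size alone, 2 with no filter (CLDN1 the second) and 4 with the crypt covariate. With age in fed piglets 1 was higher with library size alone or the crypt covariate, and 1 lower with the crypt covariate.

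Library size alone moved the median gene by 0.22 on fasting at 4 weeks, by -0.24 in the difference between ages and by 0.21 with age in fed piglets. Over all genes it gave 6960 higher and 2518 lower on fasting at 4 weeks (4768 and 4141 with TMM), 2213 higher in the difference between ages and 2719 lower with age in fed piglets. A test for more than 1.5-fold gave 1564 higher and 1218 lower on fasting at 4 weeks, 172 and 163 at 6 weeks, 1111 and 1562 in the difference between ages, 1523 and 1278 with age in fed piglets and 320 and 582 in fasted piglets.

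Leaving out each of 64 piglets in turn, an alternative chosen after the data were seen, changed 4 of 40 calls: CLDN15 with age in fed piglets (-0.46 to -0.34, lost in 14 fits), F11R on fasting at 6 weeks (0.21 to 0.26, gained in 13 fits, with an adjusted p of 0.037 without pig 44), CLDN3 with age in fed piglets (-0.25 to -0.18, gained without pig 25) and TJP1 on fasting at 6 weeks (0.11 to 0.17, gained without pig 64). No paired analysis was possible because the groups share no piglet numbers. Depth limits CLDN1 and CLDN15.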

Other observations

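Counts below stand beside 33.9% of all genes rising and 29.4% falling on fasting at 4 weeks, and 22.7% and 18.4% at 6 weeks. Of 14 tested regulators of the junction's actomyosin belt, 2 rose and 8 fell at 4 weeks, and 1 rose and 4 fell at 6 weeks. TIAM1, an activator of RAC1, rose at 4 weeks (1.24, SE 0.19, adjusted p = 6.1e-08) and gave -0.33 at 6 weeks (SE 0.18, adjusted p = 0.14), or -0.44 (adjusted p = 0.041) without pig 41. ARHGEF18, an activator of RhoA, rose at 6 weeks (0.40, SE 0.09, adjusted p = 0.00017). In fasted piglets ROCK1 was higher (0.23, SE 0.08, adjusted p = 0.012) and RAC1 lower (-0.23, SE 0.08, adjusted p = 0.014) at 6 than at 4 weeks, and the RAC1 call was lost without fasted 4-week pigs 1, 28 and 32 (-0.15, adjusted p = 0.076). MYL9, a light chain that smooth muscle also expresses, fell by 1.37 at 4 weeks (adjusted p = 5.2e-07), and gave 0.09 (adjusted p = 0.44) with smooth muscle markers as a covariate.

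Among matriptase, its inhibitors and EPCAM, which act on the turnover of CLDN7 in human cells, 3 of 5 genes rose and 0 fell at 4 weeks, and 0 rose and 3 fell at 6 weeks. At 6 weeks PRSS8 (prostasin) fell by 0.47 (adjusted p = 2.2e-05), while SPINT1, an inhibitor of matriptase, was lower at 6 than at 4 weeks in fed piglets (-0.27, adjusted p = 0.015), a call that scaling by library size alone lost (-0.05, adjusted p = 0.51). EPCAM rose at 4 weeks (0.39, SE 0.08, adjusted p = 3.3e-05) and fell at 6 weeks (-0.24, SE 0.08, adjusted p = 0.016), and ST14 (matriptase) likewise rose (0.32, SE 0.10, adjusted p = 0.0044) and fell (-0.37, SE 0.10, adjusted p = 0.0024). With age EPCAM was higher at 6 than at 4 weeks in fed piglets (0.38, SE 0.08, adjusted p = 4.8e-05), and ST14 was lower at 6 than at 4 weeks in fasted piglets (-0.77, SE 0.10, adjusted p = 8.7e-09). With the epithelium covariate the 4-week fasting values were 0.12 for EPCAM (adjusted p = 0.3) and -0.01 for ST14 (adjusted p = 0.94), and the age value of EPCAM in fed piglets was 0.01 (adjusted p = 0.95). With the smooth muscle covariate the 4-week fasting values were 0.07 (adjusted p = 0.51) for EPCAM and 0.00 (adjusted p = 0.99) for ST14.

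Of 8 tested cytokines and receptors known to act on the barrier, 6 rose and 1 fell at 4 weeks, and 1 rose and 2 fell at 6 weeks. The 4-week rise of IFNGR1 (0.26) was lost in 12 of 64 fits that left out 1 piglet (adjusted p up to 0.12). IFNG, interferon gamma, which in human epithelial cultures opens tight junctions, was at 0.116, 0.731 and 1.56 CPM in fasted and 0, 0.194 and 0.402 CPM in fed 4-week piglets (1.99, SE 0.43, adjusted p = 6.1e-05). At 6 weeks IFNG was at 0.319, 1.04 and 6.35 CPM in fasted and 0.308, 1.38 and 5.8 CPM in fed piglets (-0.30, SE 0.34, adjusted p = 0.49). T cell markers, of which 5 of 6 were tested, were higher in fasted piglets by 0.52 at 4 weeks (adjusted p = 0.00098, permutation test). At 6 weeks they were higher by 0.37 (adjusted p = 0.0063, permutation test). By the median over markers the 4-week value was 0.36, with 12 of 16 fasted piglets above the fed median (adjusted p = 0.053, permutation test). The 6-week value was then 0.37 (adjusted p = 0.024, permutation test). The part of T cells in the IFNG result was not tested. TNFRSF1A, the gene most like CLDN4, fell on fasting at 4 weeks (-0.51, SE 0.12, adjusted p = 0.00019) and at 6 weeks (-0.36, SE 0.12, adjusted p = 0.012). IL22RA1, the epithelial receptor of interleukin-22, rose at 4 weeks (0.96, SE 0.15, adjusted p = 1.5e-07) and 6 weeks (0.56, SE 0.15, adjusted p = 0.0022). IFNGR1, a receptor chain of interferon gamma, fell at 6 weeks (-0.42, SE 0.11, adjusted p = 0.0019). TNFSF14 (LIGHT) was higher at 6 than at 4 weeks in fasted piglets (1.06, SE 0.13, adjusted p = 1.3e-09), and TGFB1 was lower (-0.59, SE 0.14, adjusted p = 0.00072).

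Further genes of the junction lists changed with age. In fed piglets AMOTL2, an angiomotin-like scaffold, was lower at 6 than at 4 weeks (-1.49, SE 0.14, adjusted p = 1.9e-14), and in fasted piglets also (-0.97, SE 0.14, adjusted p = 5.5e-08). Its relative AMOTL1 fell on fasting at 4 weeks (-0.83, SE 0.23, adjusted p = 0.0013), which became 0.35 (adjusted p = 0.15) with smooth muscle markers as a covariate. JUP (plakoglobin) rose on fasting at 4 weeks (0.46, SE 0.10, adjusted p = 6.8e-05) and was higher at 6 than at 4 weeks in fed piglets (0.49, SE 0.10, adjusted p = 2.5e-05). With the epithelium covariate these values were 0.07 (adjusted p = 0.6) and -0.04 (adjusted p = 0.78). NECTIN1 rose on fasting at 6 weeks (0.29, SE 0.11, adjusted p = 0.03), a call lost with scaling by library size alone (0.26, adjusted p = 0.081) and without pig 33, 35, 45, 54 or 64 (adjusted p up to 0.06), and NECTIN3 was higher at 6 than at 4 weeks in fasted piglets (0.30, SE 0.08, adjusted p = 0.0024). JAM2, a relative of F11R, was higher at 6 than at 4 weeks in fasted piglets by 0.60 (SE 0.23, adjusted p = 0.031), and 8 of the 64 fits that left out 1 piglet lost the call, the largest adjusted p being 0.059. MAGI3, a scaffold, was higher by 0.20 (SE 0.08, adjusted p = 0.029), and 6 of the 64 fits lost the call, with an adjusted p up to 0.069.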
